A study of Mus musculus with 7 samples.

Results

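Guanylate-binding proteins (GBPs) are large GTPases encoded by the Gbp genes, and 10 mouse genes of the family, Gbp2 to Gbp11, were followed here in mouse spleen cells after selection for natural killer (NK) cells. The genes were chosen by symbol, with earlier results of these data known. A value was taken only from a probe set that the platform annotation assigns to 1 gene symbol. This left 7 genes with a value (Gbp3, Gbp4, Gbp5, Gbp7, Gbp8, Gbp9 and Gbp11) of the 19752 genes tested. Gbp2, Gbp6 and Gbp10 were found only on probe sets that carry several Gbp symbols and have no value of their own here. Cells kept 8 h in culture with 250 U/ml of interleukin 2 (IL2) gave 4 arrays (replicates 1 to 4), and untreated cells kept as long gave 3 (replicates 2 to 4). All cells came from male C57BL/6 mice aged 6 weeks and were enriched by EasySep negative selection, which removes other cell types and leaves the NK cells unlabelled. Each RNA sample was measured on an Affymetrix Mouse Gene 1.0 ST array, and values are log2 intensities after the authors' RMA normalization. The labels do not tell if each replicate had mice or a culture of its own, and the p-values therefore cover the spread of these arrays, which may be technical.

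GBPs are made in response to interferons, above all interferon gamma, and act against microbes inside the cell. They bind GTP, assemble on pathogens and on the vacuoles that hold them, and help to break these open and to start inflammasome signalling. Some members, such as Gbp2 and Gbp5, carry a lipid at their C terminus that anchors them to membranes, and recruitment to vacuoles depends in mice on immunity-related GTPases and on the ATG conjugation proteins. NK cells are a main source of interferon gamma, and interferon acts on cells through STAT factors and interferon regulatory factors (IRFs), which bind the gamma-activated site (GAS) and the interferon-stimulated response element (ISRE).

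The mouse Gbp genes lie in 2 clusters. In the RefSeq annotation of GRCm38.p6, Gbp5, Gbp7, Gbp3, Gbp2b and Gbp2 span 141 kb of chromosome 3 (chr3:142496934-142638008). Gbp8, Gbp9, Gbp4, Gbp10, Gbp6 and Gbp11 span 334 kb of chromosome 5 (chr5:105012513-105346476), and Gbp11 is annotated there as a transcribed pseudogene. Promoter windows, from 250 bases before to 50 bases after the annotated start, were at hand from RefSeq for 3 of the 7 measured genes. These 3 genes all lie on chromosome 3, and no Gbp gene of chromosome 5 had a window. The windows are printed from 5′ to 3′ on the coding strand (the plus strand for all), with each match to the ISRE core in capitals. This motif was marked because each printed window holds it, a choice made with the matches known. Its part in the change with IL2 was not tested. The ISRE core was searched on both strands as GAAA, any 2 bases and GAAA again, which on the other strand reads TTTC, any 2 bases and TTTC. The windows are chr3:142496684-142496983 for Gbp5, chr3:142530086-142530385 for Gbp7 and chr3:142559794-142560093 for Gbp3.
Gbp5: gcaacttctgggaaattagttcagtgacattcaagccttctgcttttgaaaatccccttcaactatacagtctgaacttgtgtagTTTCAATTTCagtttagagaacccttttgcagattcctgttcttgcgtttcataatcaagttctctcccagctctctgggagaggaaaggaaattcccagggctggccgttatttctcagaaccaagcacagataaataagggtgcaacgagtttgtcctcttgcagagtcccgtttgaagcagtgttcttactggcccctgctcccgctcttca
Gbp7: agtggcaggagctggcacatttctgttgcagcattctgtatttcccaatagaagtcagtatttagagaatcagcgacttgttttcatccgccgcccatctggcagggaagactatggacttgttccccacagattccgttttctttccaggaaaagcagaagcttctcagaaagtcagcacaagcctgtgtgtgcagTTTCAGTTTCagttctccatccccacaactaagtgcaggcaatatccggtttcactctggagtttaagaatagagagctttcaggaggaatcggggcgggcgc
Gbp3: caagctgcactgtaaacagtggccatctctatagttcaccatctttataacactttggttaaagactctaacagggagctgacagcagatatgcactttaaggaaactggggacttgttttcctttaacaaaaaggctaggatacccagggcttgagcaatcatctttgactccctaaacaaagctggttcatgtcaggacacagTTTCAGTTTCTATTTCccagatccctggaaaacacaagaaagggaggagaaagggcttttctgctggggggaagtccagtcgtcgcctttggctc

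In the Gbp5 window the ISRE core lay at bases -165 to -156 from the start, in the Gbp7 window at -53 to -44, and in the Gbp3 window at -45 to -36 and at -39 to -30, which overlap. All of these were matches to the reverse complement. A second annotated start of Gbp3 (window chr3:142560106-142560405) had no match to any motif searched. The window of Gbp2 (chr3:142620413-142620712), a gene with no probe set of its own, had an ISRE core at -59 to -50. Of 32851 RefSeq promoter windows of the same length, 3.44% held the ISRE core. The GAS motif, searched as TTCNNNGAA, which is its own reverse complement, stood at 2 places each in the windows of Gbp5 (-245 to -237 and -52 to -44) and Gbp7 (-106 to -98 and -87 to -79), and 8.3% of all windows held it. A kappa B motif (GGGA, any base and TTTCC, on either strand) stood at -77 to -68 in the Gbp5 window and in 0.411% of all windows. No GAS or kappa B match overlapped an ISRE match. These are matches of letters and say nothing on whether a factor was bound there.

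**Figure D1:**
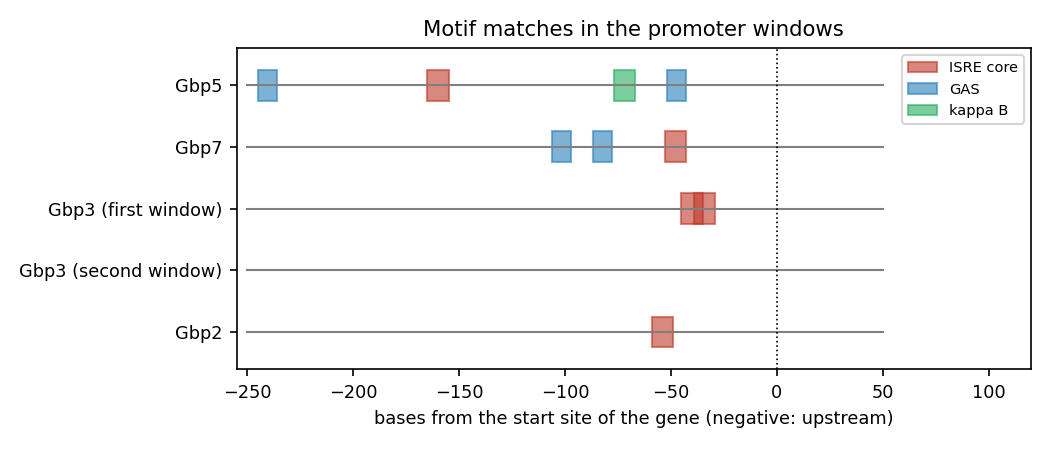
Positions of motif matches in the 5 RefSeq promoter windows of Gbp5, Gbp7, Gbp3 (2 annotated starts) and Gbp2, in bases from the annotated start (dotted line). Boxes are matches to the ISRE core, GAS and kappa B motifs. The ISRE core is found in 4 of the 5 windows and lies between -59 and -30 in those of Gbp7, Gbp3 and Gbp2.

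With IL2, all 7 measured Gbp genes were higher than in untreated cells, by 2.52-fold to 8.99-fold, and none was lower. Each passed limma's moderated test at a Benjamini-Hochberg adjusted p under 0.05 over all genes (0.000581 to 0.0131), where 2.08% of the 19752 genes were called higher and 0.901% lower (2.98% either way). Of all calls 69.7% were higher, or 54.6% after quantile normalization of the arrays once more, which kept all 7 Gbp calls. Their median log2 fold change was 1.98, against -0.01 over all genes tested. For all 7 the lowest IL2 array lay above the highest untreated array, by 0.82 to 2.29 on the log2 scale, as it did for 6.25% of all genes, while 3.38% had every IL2 array below every untreated array. In cells that are not a pure population, a change in the share of cells that express a gene cannot be told apart from a change in RNA per cell.

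**Figure D2:**
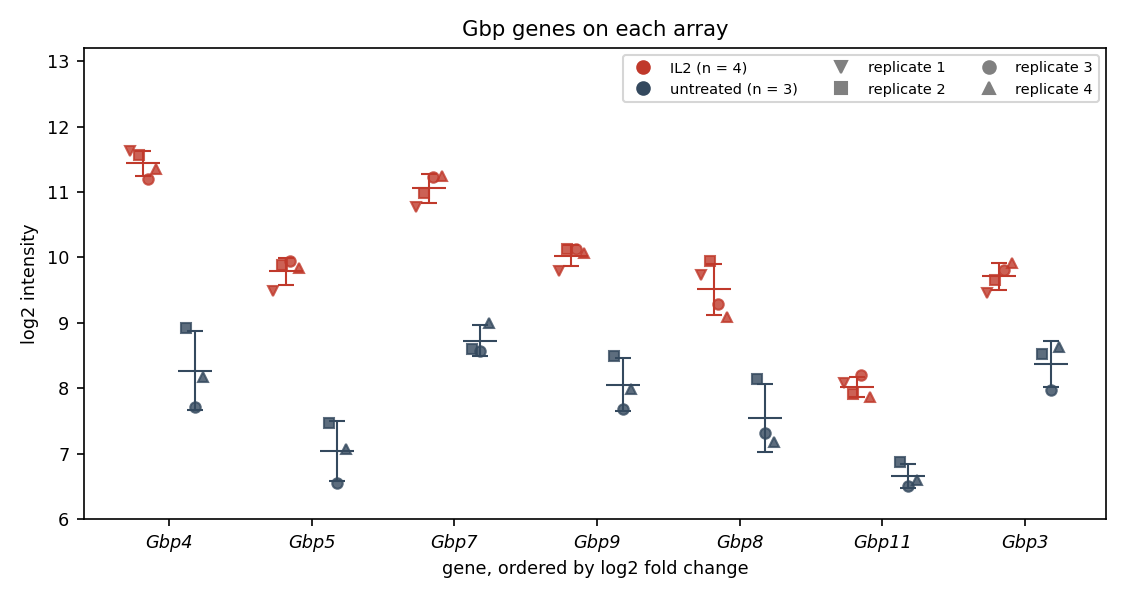
Log2 intensity (vertical axis) of the 7 Gbp genes with a probe set of their own, on the 4 IL2 arrays (red) and the 3 untreated arrays (dark). Marker shapes give the replicate number, horizontal lines the group mean and bars 1 SD. For every gene the IL2 arrays lie above the untreated arrays, with gaps of 0.82 to 2.29.

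Among the 7 genes with a probe set of their own, the largest change was that of Gbp4, a chromosome 5 gene whose own probe set is transcript cluster 10531987. It had log2 intensities of 11.63, 11.57, 11.20 and 11.35 on IL2 replicates 1 to 4, against 8.92, 7.71 and 8.18 on untreated replicates 2 to 4. The IL2 arrays lay close together, while the untreated arrays spread over 1.21 and were lowest on replicate 3. The mean was 11.44 ± 0.20 with IL2 (SD, n = 4) and 8.27 ± 0.61 in untreated cells (SD, n = 3), a log2 fold change of 3.17 (SE 0.26, 95% interval 2.56 to 3.78, limma adjusted p = 0.00144). It ranked 8 among all genes by log2 fold change.

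Gbp5, a lipid-anchored member known to promote inflammasome assembly, had the next largest change. It had log2 intensities of 9.48, 9.89, 9.94 and 9.84 on IL2 replicates 1 to 4, against 7.47, 6.56 and 7.07 on untreated replicates 2 to 4. Replicate 1 was the lowest IL2 array and replicate 3 the lowest untreated array, and the groups were 2.01 apart at their nearest. The log2 fold change was 2.76 (SE 0.21, 95% interval 2.26 to 3.25, limma adjusted p = 0.00109).

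Gbp7, its neighbour on chromosome 3 and known in mice to support the assembly of the phagocyte NADPH oxidase, had the lowest adjusted p of the family. Its log2 intensities were 10.77, 10.98, 11.22 and 11.24 on IL2 replicates 1 to 4, against 8.60, 8.57 and 8.997 on untreated replicates 2 to 4. Here untreated replicate 4, not replicate 2, was the highest of the untreated arrays. The log2 fold change was 2.33 (SE 0.15, 95% interval 1.97 to 2.69, limma adjusted p = 0.000581).

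Gbp9 and Gbp8, which lie next to each other at one end of the chromosome 5 cluster, changed by nearly the same amount. Gbp9 had log2 intensities of 9.80, 10.12, 10.13 and 10.06 on IL2 replicates 1 to 4, against 8.48, 7.68 and 7.99 on untreated replicates 2 to 4. Its log2 fold change was 1.98 (SE 0.19, 95% interval 1.54 to 2.41, limma adjusted p = 0.00201), and its groups were 1.31 apart at their nearest. Gbp8 had log2 intensities of 9.73, 9.94, 9.29 and 9.09 on IL2 replicates 1 to 4, against 8.14, 7.32 and 7.18 on untreated replicates 2 to 4. In both groups the arrays whose titles do not name the 8 h (replicates 1 and 2) were higher in Gbp8 than those whose titles do (replicates 3 and 4). Its log2 fold change was 1.96 (SE 0.28, 95% interval 1.31 to 2.62, limma adjusted p = 0.0131), and with the title style as a block it was 1.84 with a smaller error (SE 0.11, limma adjusted p = 0.000486). The call of Gbp8 ended when IL2 replicate 2 (limma adjusted p = 0.051), untreated replicate 3 (0.065) or untreated replicate 4 (0.0772) was left out.

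Gbp11 and Gbp3 changed least. Gbp11, the annotated pseudogene, had log2 intensities of 8.08, 7.92, 8.21 and 7.86 on IL2 replicates 1 to 4, against 6.87, 6.51 and 6.60 on untreated replicates 2 to 4. Its arrays were close together in both groups, and its log2 fold change was 1.36 (SE 0.12, 95% interval 1.07 to 1.64, limma adjusted p = 0.00171). Gbp3 had log2 intensities of 9.45, 9.66, 9.80 and 9.92 on IL2 replicates 1 to 4, against 8.52, 7.98 and 8.63 on untreated replicates 2 to 4. Its groups came nearest to each other of all 7 genes, at 0.82, between IL2 replicate 1 and untreated replicate 4. Its log2 fold change was 1.33 (SE 0.18, 95% interval 0.92 to 1.75, limma adjusted p = 0.00972).

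By SD, the arrays of the untreated group differed more than those of the IL2 group. The SD was smaller over the IL2 arrays than over the untreated arrays for all 7 genes. For Gbp7 the SDs were close (0.22 and 0.24), and its range was wider over the IL2 arrays (0.46 against 0.43). The share of all genes with a smaller SD over the IL2 arrays was not counted, so this is not shown to be particular to the Gbp genes. Array quality weights, fitted over all genes, are lower for arrays that deviate more. They were 0.68, 2.03, 1.82 and 1.32 on IL2 replicates 1 to 4, and 0.49, 0.98 and 0.62 on untreated replicates 2 to 4. Untreated replicate 3 was the lowest untreated array for 6 of them and replicate 4 for Gbp8, while replicate 2 was the highest for 5 and replicate 4 for Gbp7 and Gbp3. The mean of the 7 genes, each centred on its own mean over all arrays, was 0.82, 0.99, 0.95 and 0.89 on IL2 replicates 1 to 4, against -0.88, -1.55 and -1.22 on untreated replicates 2 to 4. IL2 replicate 1, which has no untreated partner of its number, was the lowest IL2 array for 4 of the 7 genes.

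The changes kept their direction within each style of title. Over the 4 arrays that name the time, the log2 fold changes were 3.33 for Gbp4, 3.08 for Gbp5, 2.45 for Gbp7, 2.26 for Gbp9, 1.94 for Gbp8, 1.56 for Gbp3 and 1.48 for Gbp11, and 5 of the 7 were called. Gbp3 (limma adjusted p = 0.103) and Gbp11 (0.0672) were not. Over the other 3 arrays, with a single untreated array, they were 2.68 for Gbp4, 2.21 for Gbp5, 2.27 for Gbp7, 1.47 for Gbp9, 1.69 for Gbp8, 1.04 for Gbp3 and 1.13 for Gbp11, all smaller than over the arrays that name the time. In this fit limma called 0 of all genes higher or lower, and it assumes for the lone untreated array the spread of the IL2 arrays.

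**Figure D3:**
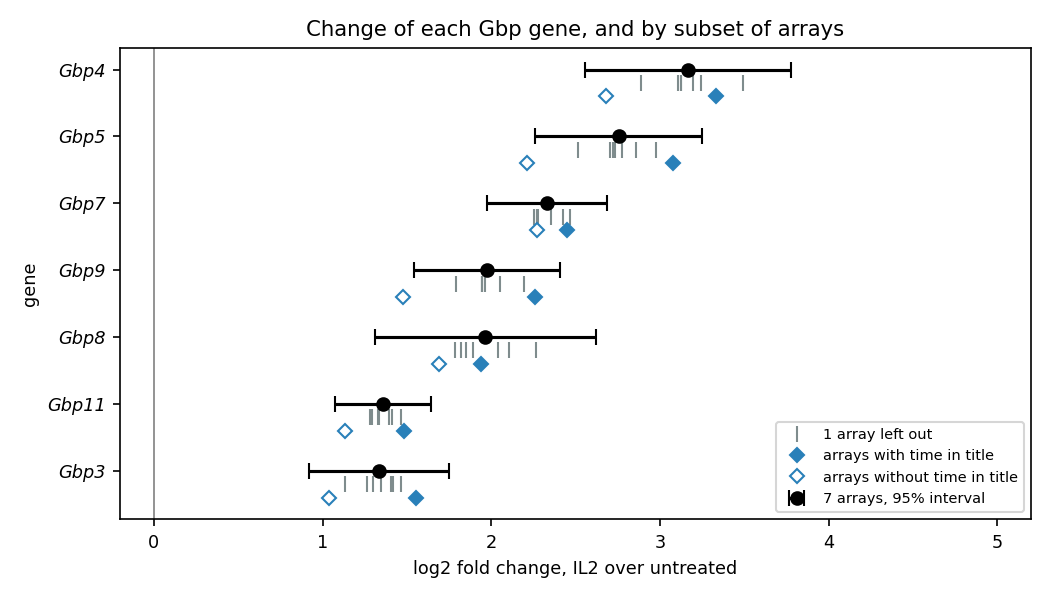
Log2 fold change of each Gbp gene, IL2 over untreated (horizontal axis), with the 95% interval of limma's fit over 7 arrays (black). Grey ticks give the value with 1 array left out in turn, and diamonds the values within each style of title. All values lie above 0, between 1.04 for Gbp3 and 3.49 for Gbp4.

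The fitted changes of the members were of different size, but the design could not show at 0.05 that any 1 member differed from the others. The change of Gbp4 exceeded the mean change of the other 6 genes by 1.21 and that of Gbp5 by 0.73, both on the log2 scale. The changes of Gbp3 and Gbp11 fell short of the mean of the other genes, at -0.93 and -0.90, and that of Gbp9 did so slightly, at -0.18. For these 5 genes the difference from the other members did not overlap between the IL2 and the untreated arrays, which gives an exact two-sided permutation p of 0.0571 (0.08 after Benjamini-Hochberg over the 7 genes). This is the smallest p that the 35 splits of 4 against 3 arrays allow, so that no such difference could pass 0.05. Gbp7 (0.24, exact p = 0.514) and Gbp8 (-0.19, exact p = 0.457) overlapped. The Gbp7 difference was -0.0265 without untreated replicate 2. The differences of the 7 genes depend on one another, since each gene enters the mean that the other genes are set against. How often genes outside the family part from its mean in this way was not counted.

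The mean change was nearly the same in both clusters, and here too no difference of any size could have reached 0.05. The mean of the 4 chromosome 5 genes minus that of the 3 chromosome 3 genes was -0.44 ± 0.30 on the IL2 arrays (SD, n = 4) and -0.41 ± 0.33 on the untreated arrays (SD, n = 3, exact two-sided permutation p = 1), a difference in change of -0.02. Its sign followed the arrays used, with values of -0.19 to 0.14 when 1 array was left out. Within each cluster the size varied, at 1.33 to 2.76 on chromosome 3 and 1.36 to 3.17 on chromosome 5. Gbp2b, the remaining gene of the chromosome 3 cluster and not among the 10 followed, rose by 1.18 (SE 0.12, limma adjusted p = 0.00234).

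The genes on the flanks of the clusters were measured for comparison. Of the 4 nearest protein-coding genes on each side of each cluster, 12 of 16 had a probe set of their own, and of these 1 was called higher and 0 lower, where 2.98% of all genes were called either way. With so few genes, this count does not set the flanks apart from other genes. The 7 measured flanking genes of chromosome 3 (Pdha2, Unc5c, Bmpr1b, Pdlim5, Kyat3, Gtf2b and Pkn2) had log2 fold changes of -0.13 to 0.16. On chromosome 5 the gene called was Lrrc8c, which encodes a subunit of the volume-regulated anion channel. It averaged 11.41 ± 0.10 with IL2 and 10.45 ± 0.34 in untreated cells (SD, n = 4 and 3), and its change was 0.96 on the log2 scale (SE 0.16, adjusted p = 0.0194 in limma). Its neighbours Lrrc8b, at 0.38 (limma adjusted p = 0.211), and Lrrc8d, at -0.62 (limma adjusted p = 0.292), encode other subunits of that channel and did not pass.

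**Figure D4:**
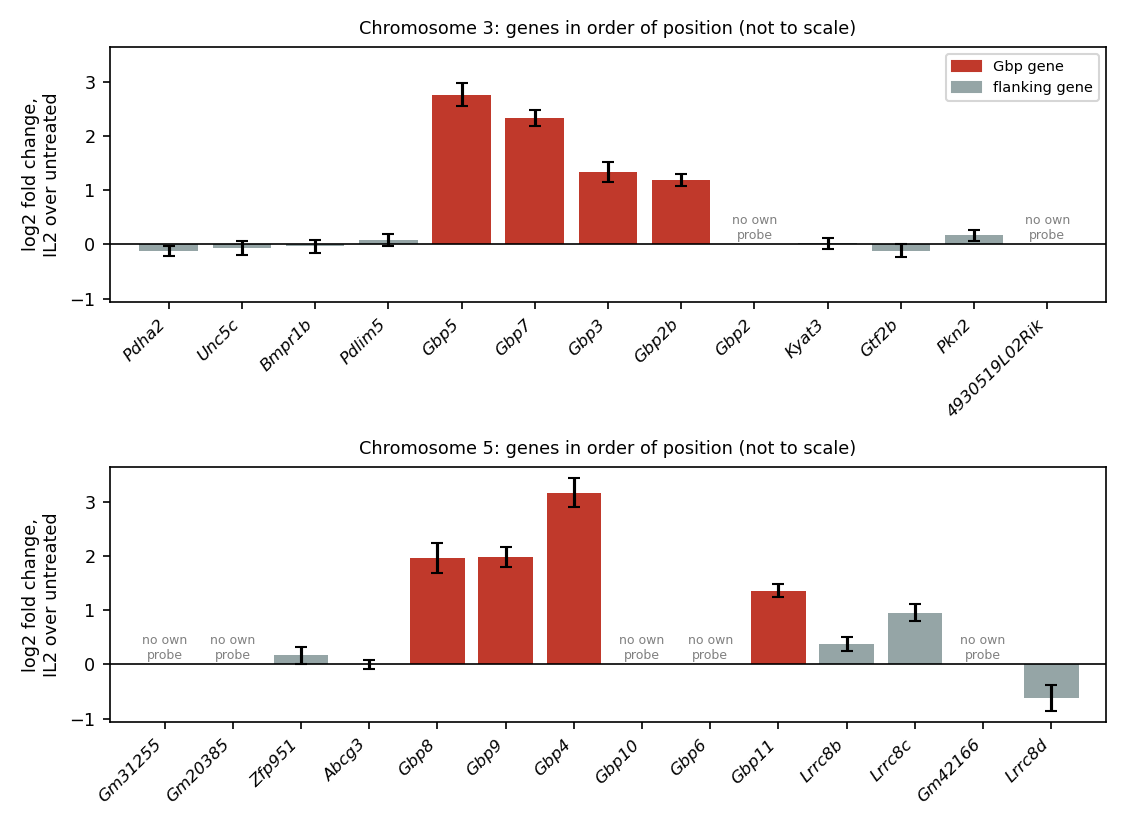
Log2 fold change, IL2 over untreated (vertical axis), of the Gbp genes (red) and of the 4 nearest protein-coding genes on each side (grey), in order of position on chromosomes 3 and 5. Bars give the fitted value and error bars its SE, and genes with no probe set of their own are marked. The measured Gbp genes stand at 1.18 to 3.17 and the flanking genes at -0.62 to 0.96.

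The probe sets that carry several Gbp symbols also rose, but their values belong to no single gene. Transcript cluster 10496592, annotated to Gbp2 and Gbp2b, had log2 intensities of 12.31, 12.47, 12.10 and 12.33 on IL2 replicates 1 to 4, against 9.30, 8.05 and 8.76 on untreated replicates 2 to 4. Transcript cluster 10531994, annotated to Gbp11, Gbp10, Gbp9, Gbp6, Gbp8 and Gbp4, had 11.04, 10.96, 10.94 and 10.79 on IL2 replicates 1 to 4, against 8.42, 7.71 and 7.91 on untreated replicates 2 to 4. The groups were far apart on both, with untreated replicate 3 the lowest array. The log2 fold changes were 3.60 (SE 0.27, limma adjusted p = 0.00115 over all probe sets) and 2.92 (SE 0.17, limma adjusted p = 0.000344 over all probe sets). Gbp genes of 1 cluster resemble each other in sequence, and how far signal crosses between members was not tested, for the probe sets with 1 symbol as well.

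Genes of interferon gamma signalling moved in part. Of 16 measured genes 6 were called higher and 1 lower, a share of 37.5% higher beside the 2.08% of all genes, with a median of 0.32. Ifng, the gene of interferon gamma itself, rose by 3.47 (SE 0.14, limma adjusted p = 5.98e-05), and Socs1, a feedback inhibitor of JAK kinases, by 2.84 (SE 0.09). Irf1, an interferon regulatory factor known to drive Gbp transcription in mice, had log2 intensities of 10.38, 10.89, 10.89 and 10.92 on IL2 replicates 1 to 4, against 9.49, 8.83 and 9.005 on untreated replicates 2 to 4, and rose by 1.66 (SE 0.19, limma adjusted p = 0.00534). With the mean of all its probe sets in place of the brightest, its change was 0.99 (limma adjusted p = 0.0115). Like most Gbp genes, it was lowest on IL2 replicate 1 and untreated replicate 3. The other genes called, named here after their values were seen, were Stat2 (1.53), Irf8 (1.22) and Nlrc5 (0.63), which were higher, and the receptor chain gene Ifngr2 (-0.84), which was lower. The count higher was 3 without IL2 replicate 2, IL2 replicate 3 or untreated replicate 4, and Ifngr2 was no longer called without IL2 replicate 2 or 3 or untreated replicate 2 or 4. Irf9, at 0.84 (limma adjusted p = 0.0969), was not called in the main fit. It passed after quantile normalization once more (limma adjusted p = 0.0202), with array quality weights (0.0455) and with only genes of at least median signal (0.0447).

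Of 6 type I interferon genes, receptors and the kinase Tyk2, limma called 0 higher and 0 lower, and 0 had an unadjusted p below 0.05. The median was -0.15, and the largest difference was that of Ifna2, at -0.41 (SE 0.19, limma adjusted p = 0.424). The interferon genes themselves had a signal below the median of every array, where a change could go unseen. Their mean log2 intensities with IL2 and in untreated cells were 5.51 and 5.58 for Ifnb1, 6.19 and 6.60 for Ifna2, and 4.80 and 4.90 for Ifna4. Stat2 and the IRF genes, Irf9 among them, were counted only in the interferon gamma list. These lists therefore do not separate a response to one kind of interferon from a response to the other.

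Most measured genes of other interferon-inducible GTPases also rose. Of 7 measured genes 5 (71.4%) were called higher and 0 lower, beside 2.08% of all genes called higher, with a median of 1.86. The immunity-related GTPase genes Gm12250 (3.29, SE 0.28, limma adjusted p = 0.00147), Iigp1 (3.16, SE 0.11, limma adjusted p = 3.46e-05) and Irgm1 (2.60, SE 0.33, limma adjusted p = 0.00751) had the largest changes. The count was 3 without untreated replicate 4, where Irgm1 lost its call (limma adjusted p = 0.0526). It was 6 with replicate number or the title style as a block, where Gm4841 passed as well (limma adjusted p = 0.0242 and 0.00589). It was also 6 with each array centred on its median, again with Gm4841 (limma adjusted p = 0.0374). After quantile normalization once more it was 7, with Gm4841 (limma adjusted p = 0.0100) and Mx2 (limma adjusted p = 0.0361). A further 6 genes of this list had no probe set of their own.

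The lists of the machinery that acts with GBPs at the vacuole had few calls, as had all genes (2.08% higher and 0.901% lower). Of 10 ATG conjugation genes, 8 genes of prenylation and C-terminal processing and 9 genes of other dynamin-like GTPases, limma called 0 in each list in each direction, while 1, 1 and 0 genes had an unadjusted p below 0.05. The medians were -0.00258, 0.15 and 0.04. The largest differences were those of Map1lc3b (-0.38, limma adjusted p = 0.365), the CaaX protease gene Zmpste24 (0.72, limma adjusted p = 0.137) and Mfn2 (0.32, limma adjusted p = 0.559). Zmpste24 passed without untreated replicate 2 (limma adjusted p = 0.0189) and with array quality weights (0.0482). After quantile normalization once more Map1lc3b (-0.52, limma adjusted p = 0.0205) and Dnm2 (-0.33, limma adjusted p = 0.0434) were called lower. Of 11 inflammasome genes 1 was called higher and 0 lower, namely Casp4, which encodes caspase-11, the sensor of cytosolic lipopolysaccharide that GBPs assist (0.87, SE 0.13, limma adjusted p = 0.0143). Of 6 adaptor and ubiquitin ligase genes 1 was called higher and 0 lower, namely Rnf213, an interferon-inducible ubiquitin ligase (1.94, SE 0.29, limma adjusted p = 0.0147). Without IL2 replicate 2, 3 or 4 or untreated replicate 4 neither of these calls held, and without untreated replicate 3 that of Casp4 ended as well (limma adjusted p-values of 0.0505 to 0.0772). Nlrc4 was called lower without untreated replicate 3 (-0.57, limma adjusted p = 0.0476). Il1b, the interleukin 1 beta gene, was called lower with the replicate number as a block (-1.21, limma adjusted p = 0.0105) and with the title style as a block (-1.28, limma adjusted p = 0.00381). Of the adaptor list, Trim21 was called higher after quantile normalization once more, with array quality weights and with only genes of at least median signal (limma adjusted p-values of 0.0194 to 0.0439). Sqstm1 was called lower in the first of these (-0.72, limma adjusted p = 0.0403). Dnm2, Nlrc4, Il1b, Trim21, Sqstm1, Gm4841, Mx2 and Irf9 are named after their values were seen.

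**Figure D5:**
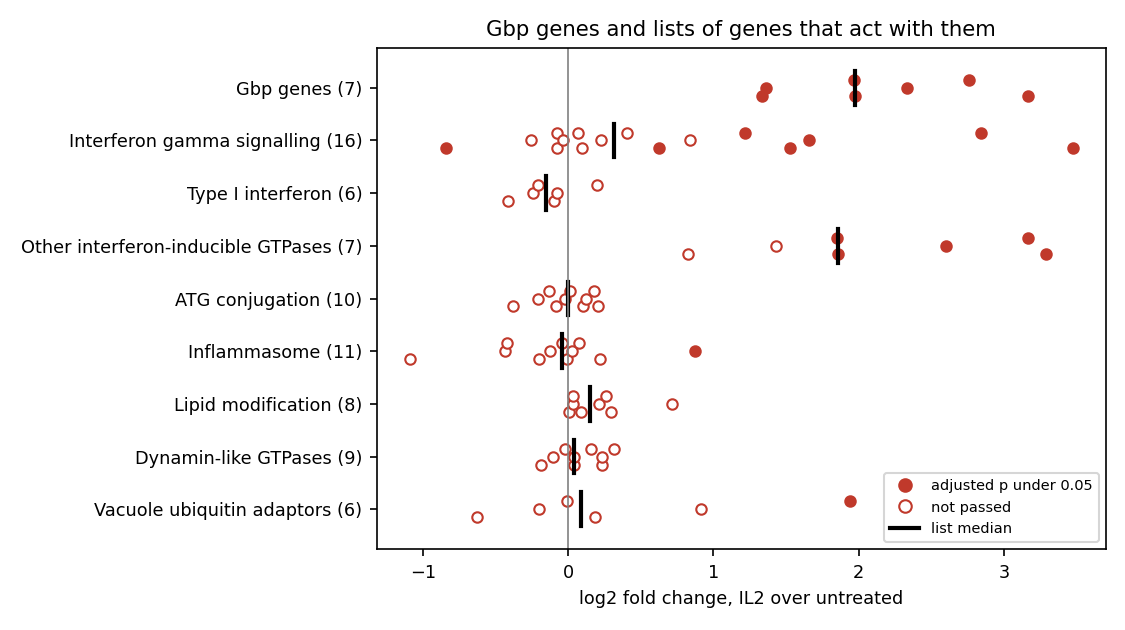
Log2 fold change, IL2 over untreated (horizontal axis), of the 7 Gbp genes and of the measured genes of 8 lists, with the number of genes in parentheses. Each point is a gene, filled where the adjusted p was under 0.05, and black lines are list medians. The medians are 1.98 for the Gbp genes and 1.86 for other interferon-inducible GTPases, and between -0.15 and 0.32 for the other lists.

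The profile over the 7 arrays was set against that of every other gene by the root-mean-square difference after centring each gene on its own mean. Nearest to the mean profile of the 7 Gbp genes were Ncr1, the NK receptor NKp46 (0.118 on the log2 scale), the kinase gene Nek6 (0.121), the sulfatase gene Sulf2 (0.136), the granule membrane protein gene Nkg7 (0.142) and the receptor gene P2ry14 (0.171). Taken singly, no Gbp gene had another Gbp gene as its nearest. Only 7 of the 19752 genes compared are members, so this does not show that the members vary apart. The nearest were Septin11 to Gbp3 (0.0883), Sulf2 to Gbp9 (0.093), Bcl2 to Gbp7 (0.123), Chn2 to Gbp11 (0.125), Gem to Gbp5 (0.133), Fasl to Gbp8 (0.155) and Prf1, the perforin gene, to Gbp4 (0.196). Among the 21 pairs of Gbp genes the difference ran from 0.246 for Gbp3 and Gbp11 to 0.972 for Gbp3 and Gbp4. By construction, this measure places genes with an IL2 change of like size near each other.

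Markers of NK cells and of macrophages and monocytes moved over the same arrays, and few or no markers of the other cell types were called. Of 9 NK cell markers 4 (Ncr1, Klrb1c, Tbx21 and Prf1) were called higher and 0 lower, beside 2.08% of all genes called higher. The count was 7 without untreated replicate 2, and 6 with either block, after quantile normalization once more, with array quality weights and with only genes of at least median signal. It was 3 without untreated replicate 3 or 4, and 2 over the arrays that name the time. The summed intensity of the 9 NK cell markers was 13514 to 18389 on the IL2 arrays and 4732 to 7974 on the untreated arrays. Of 12 measured markers of macrophages and monocytes, which also make GBPs when exposed to interferon, 0 were called higher and 6 lower (median -0.59, beside 0.901% of all genes called lower), with a summed intensity of 4069 to 5686 on the IL2 arrays and 11575 to 12699 on the untreated arrays. The count lower was 2 without IL2 replicate 2, IL2 replicate 3 or untreated replicate 4. Of 6 B cell markers 1, Fcer2a, was called lower (11426 to 12273 with IL2 and 13771 to 14961 untreated), and of 6 neutrophil markers 1, Mmp8 (1525 to 2247 with IL2 and 3894 to 5272 untreated). The neutrophil count was 3 when replicate number was a block, 4 with the title style as a block and 3 after quantile normalization once more. That normalization also gave 3 B cell markers lower. The medians of the B cell and neutrophil lists were -0.29 and -0.82, and in each list 4 of 6 markers had an unadjusted p below 0.05. Of 7 T cell and 7 dendritic cell markers limma called 0 in each list, while 0 and 4 had an unadjusted p below 0.05. For the dendritic cell markers 1 was called higher with the title style as a block and without untreated replicate 2, and 1 higher and 1 lower after quantile normalization once more. The B cell call ended without IL2 replicate 2 or 3 or any untreated array. Whether each cell type was present cannot be read from these intensities, and the part of the cell types in the Gbp values was not tested.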

How the data were processed

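The intensity values of the 7 arrays were deposited by the authors as 1 linear value per transcript cluster, and the submitters' processing notes name Affymetrix Power Tools and RMA. For their versions, and for the set of arrays normalized together, nothing is given in the sources used here. The table held 24922 probe sets, and the platform annotation gave 1 symbol for 21425, several for 1399 and none for 2098. Values were brought to log2 with no offset, and the brightest probe set per gene was kept (19752 genes, no filter on signal). Median intensities per array were 121 to 131. Files of probe-level background were not used here, so that no gene is called undetected, and the number of arrays limits the precision.

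Groups came from the sample labels. IL2 was compared with untreated in limma 3.58.1 (R 4.3.3, statmod 1.5.0) with eBayes, with Benjamini-Hochberg correction over all genes at 0.05, and 95% intervals from the moderated fit. Differences between members were tested by exact permutation over arrays. A run on simulated data checked the fit. Alternatives were a block for replicate number or title style, other normalizations, filters and weights, each title style alone, and each array left out in turn. The Gbp genes, lists and markers were chosen with earlier results of these data known. Named list genes were the 3 called genes with the largest change, or, in a list without calls, the gene with the largest difference. Sequences and coordinates are from RefSeq (GRCm38.p6). The comparison of protein sequences that had been planned was not run. Figures were drawn with matplotlib 3.10.9.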

Additional observations from a re-analysis of the deposited data

Results flagged for a closer look

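The 2 probe sets that carry several Gbp symbols were outside the genes tested and were higher with IL2 than in untreated cells, by 3.60 (transcript cluster 10496592, Gbp2 and Gbp2b) and 2.92 (transcript cluster 10531994, 6 Gbp symbols) on the log2 scale. Among all 24922 probe sets they ranked 3 and 15 by log2 fold change.

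In Irf1 the lowest of the 4 IL2 arrays, replicate 1, stood away from the other 3 by 0.945 of the range of the group, at 10.38 beside 10.89, 10.89 and 10.92. This was the 1 group flagged of 44 groups of 4 arrays looked at. By chance the flagging rule marks about 1 of 20 groups, a rate that belongs to its cutoff and not to a gap of this size.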

How the results depend on the processing

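All 7 Gbp genes remained higher, with no change of sign, under the 17 alternatives to the fit. Of 119 recomputed fold changes 107 kept their call and 12 lost it: 7 in the fit with a single untreated array, 2 over the arrays that name the time (Gbp3 and Gbp11) and 3 for Gbp8 with 1 array left out. The count of Gbp genes higher was 7 in the other settings, 5 over the arrays that name the time, 0 over the arrays that do not, and 6 to 7 with 1 array left out. The count lower was 0 throughout. Of all genes, 410 were higher and 178 lower. Quantile normalization again gave 694 higher and 577 lower, the arrays that name the time 81 and 22, and the arrays that do not 0 and 0. With 1 array left out 134 to 517 genes were higher and 65 to 152 lower, with 134 to 178 higher without IL2 replicate 2, 3 or 4 or untreated replicate 3 or 4. Same-numbered arrays did not all deviate together (correlations of 0.46, -0.30 and 0.31 for numbers 2, 3 and 4). So few correlations cannot show whether the numbers mark pairs, and the labels do not say. With the replicate block 554 genes were higher and 184 lower, and all 7 Gbp genes kept their call. The difference between the clusters, of -0.02, turned to 0.00689 after quantile normalization again, and was -0.19 to 0.14 with 1 array left out (0.04 and 0.08 without IL2 replicates 3 and 4, 0.14 without untreated replicate 2). The difference of Gbp7 from the other members was -0.0265 (without untreated replicate 2) to 0.399 with 1 array left out. With all probe sets tested, a setting added after the data had been seen, 457 were higher and 192 lower. The causes were not tested. A planned comparison of protein sequences was not run.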
